A study of Mus musculus with 11 samples.

Results

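The baseline transcriptome of the mouse kidney was described from 4 wild-type (WT) kidneys. They were chosen by the genotype in the labels, Cldn16 +/+, and make up 4 of the 11 arrays of the series. Cldn16 encodes claudin 16, which seals and selects ions at cell contacts in the thick ascending limb. The donors were female mice of 8 weeks on a mixed Sv129 and C57BL/6N background (129S7/SvEvBrd-Hprtb-m2, F2, with 1 backcross to C57BL/6N). WT 1 and WT 2 were taken at postnatal day 59 and hybridised on slide 1, and WT 3 and WT 4 at day 58 on slide 2. Age in days and slide therefore coincide in these mice and cannot be told apart. The kidneys had been frozen without their poles, so the RNA does not represent the whole organ. Each kidney was hybridised once, and the spread between kidneys holds both biological and technical variation, which cannot be told apart. The other 7 kidneys were 3 heterozygous and 4 homozygous for the targeted allele. They were used only to see whether a wide spread or a difference between slides recurred, and no genotypes were compared.

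The kidney filters blood in the glomerulus and then recovers water, salts and nutrients along a chain of tubule segments. The proximal tubule reabsorbs most filtered solutes and is rich in mitochondria, the thick ascending limb and distal convoluted tubule reabsorb salt without water, and the collecting duct adjusts the final urine under hormonal control. Each segment carries its own set of transporters, so the RNA of whole tissue is a mixture weighted by how much of each segment was sampled.

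Each array measured 45281 probes. A probe was taken as detected when its detection p-value, the comparison of its signal with negative control beads, was under 0.01. Between 18854 and 19467 probes were detected per kidney, 41.6% to 43.0% of the array. On all 4 arrays 17217 probes were detected, 4077 on 1 to 3 arrays and 23987 on none. The probes carrying 1 gene symbol named 19057 genes, and each gene was represented by its brightest probe; this probe was detected on all 4 arrays for 9926 genes (52.1%). A signal percentile below is a probe's rank within its array, from 0 to 100. It ranks probe signals and not transcript amounts, because probes differ in how strongly they hybridise.

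The 10 brightest genes were named from the mean intensity of their probe. Atp5b, a subunit of mitochondrial ATP synthase, had the highest mean unnormalized intensity, 39245. It was followed by Fth1, the ferritin heavy chain, at 38569 and Gpx3, the plasma glutathione peroxidase made in the kidney, at 38199. Napsa, an aspartic protease of the proximal tubule, reached 37465. They also included the ribosomal protein genes Rpl41 and Rplp1, the cytosolic peroxidase Gpx1, Slc34a1, Nme7 and the mitochondrial cytochrome b gene CYTB. Their order is not firm, since all 10 had mean intensities between 34398 and 39245 and none had an SD above 0.12 on the log2 scale. The 9 probes of Nme7 disagreed in level: 3 ranked above the 99th percentile and 3 were detected on no array. Of the 20 brightest probes, 6 had no single gene symbol. The brightest 1% of probes carried between 31.8% and 33.2% of an array's summed intensity.

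The segment markers were bright, and their evenness depended on the scaling. Slc34a1, the sodium phosphate cotransporter of the proximal tubule, read 41205, 34465, 33018 and 30902 intensity units in WT 1 to WT 4. Umod, uromodulin of the thick ascending limb, read 33532, 25854, 25308 and 24197. Slc12a1, the sodium potassium chloride cotransporter of the same segment, read 21489, 19442, 15835 and 16188. For each of these genes WT 1 had the highest unnormalized intensity. After background correction and quantile normalization the differences were small, with log2 intensities of 15.09 ± 0.06 for Slc34a1, 14.72 ± 0.08 for Umod and 14.15 ± 0.07 for Slc12a1 (mean ± SD, n = 4). Quantile normalization gives top-ranked probes nearly the same values on every array; with a median shift per array the SDs were 0.16, 0.19 and 0.20, and that of Slc12a3 was 0.31. Slc12a3, the thiazide-sensitive cotransporter of the distal convoluted tubule, had 13.34, 12.99, 12.95 and 13.04 on the quantile-normalized log2 scale. WT 1 lay above the other kidneys, and without it the SD of 0.18 fell to 0.045.

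Aqp2, the vasopressin-regulated water channel of the collecting duct, had the widest spread of the 5 markers after quantile normalization. Its log2 intensities were 9.53, 9.84, 10.67 and 9.80 (SD 0.49), with WT 3 clearly above the rest, and without WT 3 the SD was 0.17. A second Aqp2 probe gave 8.10, 8.15, 9.02 and 8.26 with WT 3 again highest. Probes of 1 gene differed widely in brightness: the 6 probes of Slc12a1 spanned mean percentiles from 65.4 to 99.7, and all 6 were detected on every array.

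**Figure D1:**
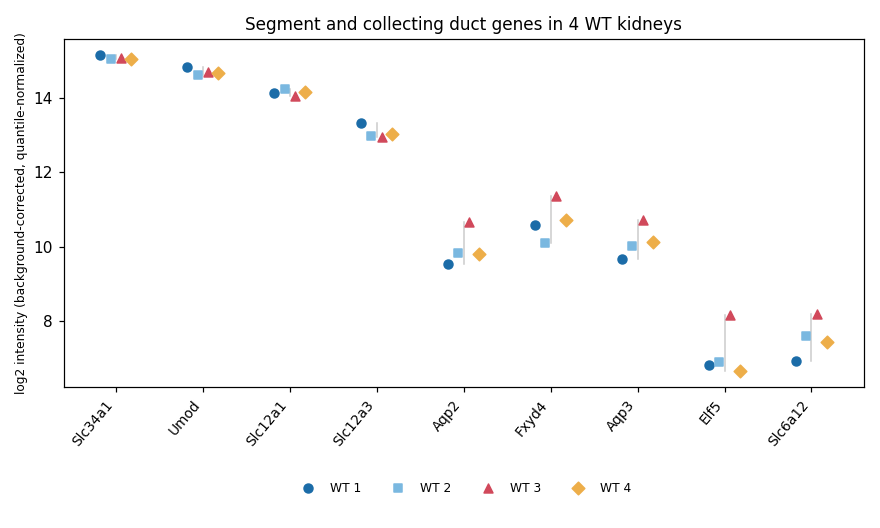
log2 intensity of the segment markers Slc34a1, Umod, Slc12a1, Slc12a3 and Aqp2 and of the genes Fxyd4, Aqp3, Elf5 and Slc6a12 in the 4 WT kidneys, 1 symbol per kidney; grey lines span the range. The first 4 genes differ little between kidneys on this quantile-normalized scale, and WT 3 is highest for the last 5.

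The early proximal tubule was the brightest segment list, with 34 of 35 measured genes detected on all 4 arrays and a median signal percentile of 97.4. Over all 19057 genes the median was 63.8. After Napsa and Slc34a1 came Kap, the kidney androgen-regulated protein, which had 14.78, 14.80, 14.83 and 14.80 on the quantile-normalized log2 scale; with a median shift per array it had 14.95, 14.84, 14.73 and 14.66, in another order. Lrp2, the endocytic receptor megalin, had a log2 SD of 0.15, and Cubn, its partner cubilin, an SD of 0.14. Of the 34 detected genes 2 had an SD above 0.5, Slc22a12, the urate transporter Urat1, and Slc5a2, the glucose transporter Sglt2. Slc22a12 read 11.77, 11.66, 10.59 and 11.29, lowest in WT 3. Slc5a2 read 9.44, 10.21, 9.04 and 10.06, again lowest in WT 3, while Slc5a1, another glucose transporter of the proximal tubule, had an SD of 0.05.

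The straight segment had 13 of 17 genes detected on all 4 arrays, led by Slc5a10, Slc1a1 and Slc7a12. Its widest members were Acsm3, an acyl-CoA synthetase (6.02, 6.73, 7.55 and 6.02), and Cyp7b1, an oxysterol hydroxylase (7.90, 8.99, 7.72 and 8.52). Acsm3 was highest in WT 3 and a second detected Acsm3 probe gave the same kidney as highest (5.94, 6.62, 7.45 and 5.51). Cyp7b1 had its highest value in WT 2.

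In the thick ascending limb 21 of 23 genes were detected on all 4 arrays, none with an SD above 0.5. Umod, Egf, the precursor of epidermal growth factor, and Slc12a1 led the list, followed by Cldn10, the claudin of its sodium-permeable junctions. Cldn16 had log2 intensities of 9.50, 9.04, 9.56 and 9.47, a percentile of 89.1. WT 2 was lowest, and without it the SD of 0.24 fell to 0.048. Cldn19, with which claudin 16 forms cation-permeable junctions, was even at 8.33, 8.49, 8.41 and 8.25. The probe of Casr, the calcium-sensing receptor that regulates this segment, was dim but detected, at 6.60, 6.43, 6.19 and 6.30.

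Distal convoluted tubule genes were detected on all 4 arrays in 16 of 18 cases. Besides Slc12a3 the list was led by Egf, Fxyd2, the gamma subunit of the sodium pump, and Pvalb, the calcium-binding parvalbumin. Trpm6, the magnesium channel of this segment, varied little at 8.74, 8.67, 8.68 and 8.82. The connecting tubule had 10 of 12 genes detected, led by the kallikrein gene Klk1 and by Kl, which encodes klotho.

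Principal cell genes of the collecting duct were detected on all 4 arrays for 19 of 22 genes. WT 3 was highest for 10 of these 19 genes and WT 2 lowest for 9. Over all detected probes WT 3 was farthest from the mean, in either direction, for 35.5%. Equal shares between kidneys are therefore no reference for such counts, here and below. The share of all genes for which a given kidney was highest or lowest is not reported. Fxyd4, a regulator of the sodium pump in the collecting duct, read 10.59, 10.11, 11.36 and 10.73, and Aqp3, the basolateral water channel, read 9.66, 10.01, 10.71 and 10.12. Elf5, a transcription factor of principal cells, read 6.82, 6.90, 8.16 and 6.65, more than 1 unit higher in WT 3 than in any other kidney. Not every member followed: Aqp4 was highest in WT 1 (9.40, against 7.99, 9.08 and 8.85), and Scnn1b and Scnn1g, subunits of the epithelial sodium channel, each had an SD of 0.07. In whole tissue, more cells of a type and more RNA per cell cannot be told apart.

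A score was computed for each list and kidney as the median, over the genes detected on all 4 arrays, of the log2 intensity minus the mean of the 4 kidneys. For principal cell genes the scores were -0.03, -0.12, 0.25 and -0.03 in WT 1 to WT 4. Over all detected genes the scores lay within 0.01 of 0. The thin limb of Henle scored -0.04, -0.11, 0.22 and 0.05, with the same highest and lowest kidneys. Genes of osmotic response and the medulla scored -0.07, -0.12, 0.17 and -0.01; among them Slc6a12, the betaine transporter induced by hypertonicity, read 6.93, 7.60, 8.18 and 7.44. WT 3 was highest for these 3 lists, but also for 20 of all 36 lists scored, so this was not particular to them. The osmotic list shares Aqp2 and Aqp3 with the principal cell list and Slc14a2 with the thin limb list. With each array only shifted to a common median, WT 1 was highest for 33 of the 36 lists; relative to the shift of all genes WT 3 was highest for 19, these 3 among them. The early proximal tubule scores lay between -0.01 and 0.02 and did not separate WT 3. Straight segment genes scored 0.12, -0.07, -0.11 and 0.02, with WT 3 lowest.

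**Figure D2:**
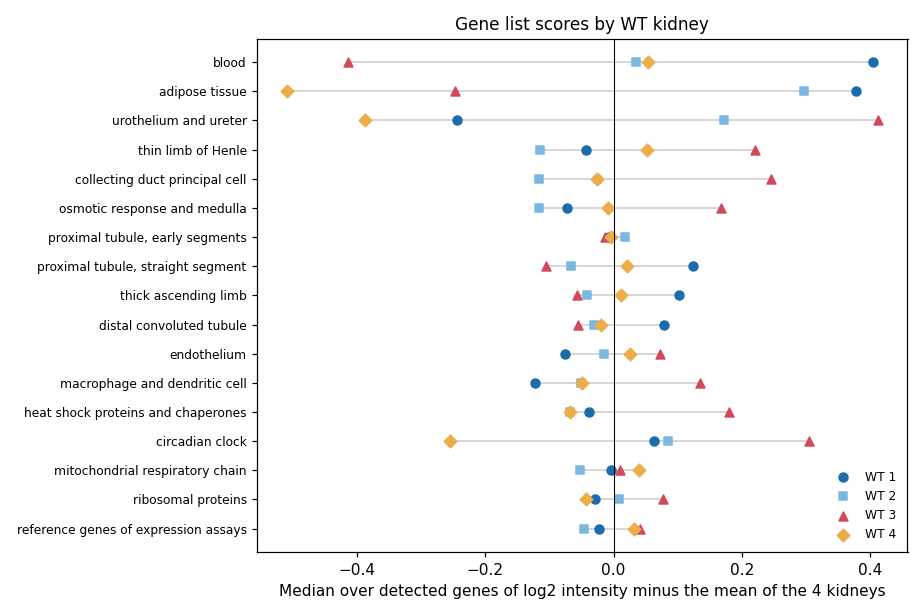
Score of each gene list in the 4 WT kidneys (median over detected genes of log2 intensity minus the mean of the 4 kidneys), 1 symbol per kidney. Blood, adipose and urothelial lists spread most; ribosomal, respiratory chain and reference gene lists lie near 0.

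Of the intercalated cell genes 16 of 22 were detected on all 4 arrays, with a median percentile of 76.9. They were led by Slc4a1, the anion exchanger of acid-secreting cells and of red cells, and Slc26a4, pendrin of base-secreting cells. Slc26a4 read 10.86, 11.07, 11.37 and 10.92. Podocyte genes had 13 of 16 detected and a median percentile of 73.7; Synpo, the actin-associated synaptopodin, was brightest and Nphs1, nephrin of the slit diaphragm, was near the detection limit at 5.75, 5.92, 6.06 and 5.69. Endothelial genes were detected for 24 of 25, led by Igfbp5 and Emcn. No gene of these 3 lists detected on all 4 arrays had an SD above 0.5.

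Macrophage and dendritic cell genes were detected on all 4 arrays for 17 of 21 genes, among them Lyz1, Cd74 and the class II genes H2-Ab1, H2-Aa and H2-Eb1. Cd74, the invariant chain of class II molecules, read 10.30, 10.45, 10.98 and 10.40, with WT 3 highest. Lymphocyte genes were detected for only 3 of 14: Ccl5, Thy1 and Cd3d. The probes of Cd4, Cd8a, Cd2, Ms4a1 and Gzmb were detected on no array.

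Lists of tissues that were not sampled served as a low reference, although 11 of their 64 genes (17.2%) were detected on all 4 arrays. No testis, oocyte or heart gene was detected on all 4 arrays, of 13 and 9 measured. Of 13 brain genes Mbp alone was detected on all 4, and median percentiles of these 3 lists lay between 35.1 and 37.7. Pancreas and gut had 2 of 12 genes detected on all 4 and a median of 33.5, and liver, which shares many metabolic genes with the kidney, had 8 of 17 and a median of 57.1. A probe at a low level does not show that a gene was silent. Probes of Sdha, Ndufs1 and Uqcrfs1, all subunits of the respiratory chain, and of the ribosomal protein gene Rps20 were detected in no kidney, although 29 of 32 respiratory chain genes and 25 of 26 ribosomal genes were detected on all 4 arrays. Calb1, calbindin of the connecting tubule, and Avpr2, the vasopressin receptor of the collecting duct, were likewise detected on no array.

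**Figure D3:**
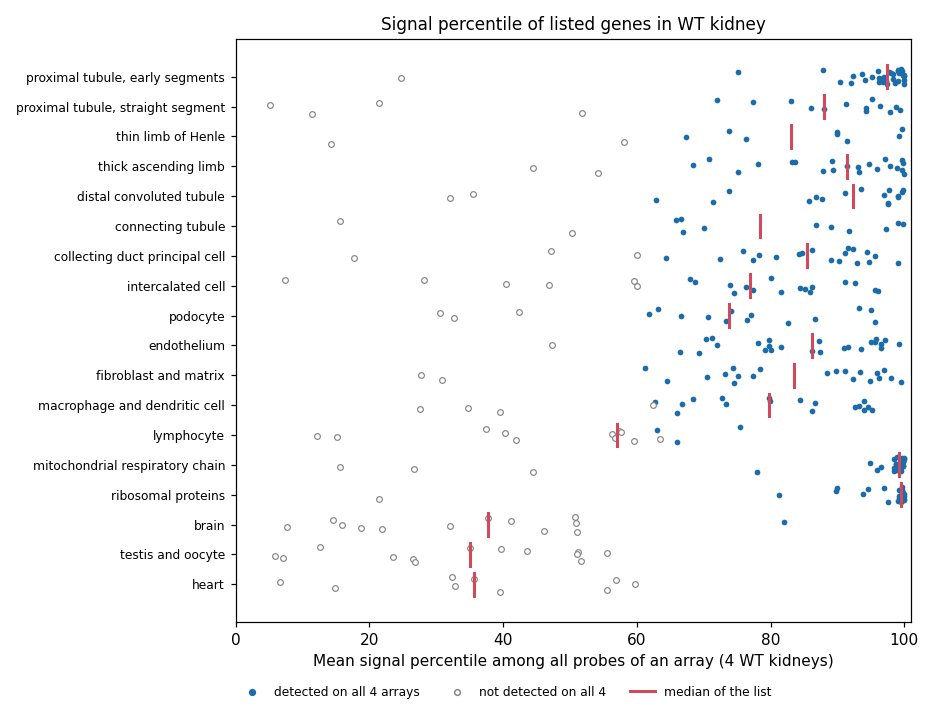
Mean signal percentile (4 WT kidneys) of each gene in 18 gene lists; filled points were detected on all 4 arrays, open points were not, and red bars mark list medians. Tubule lists lie to the right, brain, testis and heart lists to the left, and several tubule lists hold single undetected probes.

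Sex-linked genes were compared with the label. Xist, the X-inactivation RNA, read 10.53, 10.34, 10.84 and 10.77 and was detected by 4 probes on all arrays. Of 7 Y-linked genes 5 were detected on no array, and the probes of Uty and Eif2s3y were detected on 3 arrays each with log2 values of at most 5.49. Detection of whole lists of sex-biased genes did not bear on sex. All 14 measured genes known as higher in female mouse kidney, Xist among them, were detected on all 4 arrays. So were 13 of 15 known as higher in males. The male-higher genes scored -0.15, 0.02, 0.22 and -0.05, with WT 3 highest for 9 of the 13, and the female-higher genes -0.05, 0.03, -0.11 and 0.03, with WT 3 lowest for 8 of the 14. The widest female-higher gene was Akr1c18, the 20-alpha-hydroxysteroid dehydrogenase that inactivates progesterone, at 12.90, 13.90, 12.09 and 12.84, a range of 1.81 log2 units with WT 2 highest and WT 3 lowest. Gsta4, a glutathione transferase, read 9.58, 9.42, 10.62 and 9.54, with WT 3 alone high. Hprt, whose mutant allele is part of the strain's name, read 11.82, 11.75, 11.96 and 11.89, and its 3 probes had SDs from 0.06 to 0.11.

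Genes of blood, fat and urothelium had wide spreads between kidneys, with median SDs of 0.43, 0.50 and 0.39 against 0.16 over all genes detected. Blood genes scored 0.40, 0.04, -0.41 and 0.05. Hba-a1, an alpha globin, read 14.26, 13.85, 12.85 and 13.95, and Alas2, the erythroid enzyme of haem synthesis, read 7.90, 6.99, 5.89 and 6.76. Both were highest in WT 1 and lowest in WT 3. The beta globin probe of Hbb-b2 was also lowest in WT 3 (9.49, 8.59, 8.38 and 9.70) but highest in WT 4; globin genes have near-identical copies that a probe may not separate. Of the 11 blood genes measured, 6 were detected on all 4 arrays, and Epb42, Ppbp, Camp and Ngp on none. Camp and Ngp are neutrophil genes, but so are S100a8 and S100a9, which were not among the undetected.

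Adipose genes scored 0.38, 0.30, -0.25 and -0.51. Adipoq, the adipocyte hormone adiponectin, read 9.09, 9.09, 9.29 and 7.96, Cidec, a lipid droplet protein, read 6.99, 6.70, 6.65 and 5.59, and Plin4, a perilipin, read 7.77, 7.43, 6.55 and 6.62. WT 4 was lowest for 6 of the 9 genes detected on all 4 arrays. The defining adipocyte genes Fabp4, Plin1, Lep and Retn were detected on no array. Urothelial genes scored -0.24, 0.17, 0.41 and -0.39. Upk2, a uroplakin of the urothelial plaque, read 6.52, 7.02, 8.02 and 6.25; WT 3 was highest for 6 of the 8 urothelial genes detected and WT 4 lowest for 7. The part of fat, urothelium or blood in other differences between the kidneys was not tested. Of 14 adrenal genes 11 were detected on no array and Npy alone on all 4.

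Several of the clock genes separated WT 3 from WT 4. The circadian clock is a loop in which Arntl (Bmal1) and Clock activate the Per and Cry genes, Nr1d1, Nr1d2, Dbp and Ciart through E-box sequences (cacgtg), and the products of Per and Cry inhibit that activation. The labels give no hour of tissue collection. Promoters (250 bases before to 50 after the start, RefSeq, GRCm38.p6) of 3 such targets are shown because all 3 genes were lowest in WT 4, with capitals marking CACGTG, which reads the same on both strands.
Ciart, chr3:95882179-95882478, minus strand: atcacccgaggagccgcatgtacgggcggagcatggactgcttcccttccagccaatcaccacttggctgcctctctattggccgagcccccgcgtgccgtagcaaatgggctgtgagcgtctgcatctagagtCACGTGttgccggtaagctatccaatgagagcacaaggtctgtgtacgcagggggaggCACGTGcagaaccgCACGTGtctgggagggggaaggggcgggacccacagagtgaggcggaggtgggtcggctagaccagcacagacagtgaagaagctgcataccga
Per1, chr11:69098699-69098998, plus strand, the upstream of 2 listed starts: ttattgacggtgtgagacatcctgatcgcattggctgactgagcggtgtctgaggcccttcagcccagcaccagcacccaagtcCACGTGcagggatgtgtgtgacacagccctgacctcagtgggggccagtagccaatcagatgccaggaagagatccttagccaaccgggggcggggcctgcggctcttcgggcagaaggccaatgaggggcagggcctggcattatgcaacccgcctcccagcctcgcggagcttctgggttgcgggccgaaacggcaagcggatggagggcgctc
Dbp, chr7:45704997-45705296, plus strand: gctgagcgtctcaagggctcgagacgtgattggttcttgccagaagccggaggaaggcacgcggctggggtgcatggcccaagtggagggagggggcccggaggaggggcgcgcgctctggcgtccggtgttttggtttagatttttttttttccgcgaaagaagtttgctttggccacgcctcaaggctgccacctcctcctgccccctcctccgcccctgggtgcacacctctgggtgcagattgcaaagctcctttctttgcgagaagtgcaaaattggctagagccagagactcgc
The window of Ciart held 3 copies, the window of Per1 shown held 1 and that of Dbp none. The window at the other Per1 start held none. Of 32851 promoter windows 2349 (7.15%) held at least 1, and 6 of the 21 windows of clock genes did.

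Ciart, a repressor of the clock, read 8.49, 8.72, 9.33 and 7.59, highest in WT 3 and lowest in WT 4. Its other probes gave the same order of all 4 kidneys, with 7.64, 7.97, 8.58 and 6.84 for one and 6.13, 6.69, 7.15 and 5.38 for the other. Per2 read 9.79, 9.93, 10.08 and 9.11 and Dbp 12.58, 12.80, 13.02 and 12.46, again with WT 3 highest and WT 4 lowest. Usp2, a deubiquitinase with circadian expression, followed the same pattern at 11.72, 11.61, 11.90 and 11.11. Per1 was also lowest in WT 4 (8.69, 9.21, 9.14 and 7.97), but WT 2 and WT 3 hardly differed.

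Arntl ran the opposite way, with 7.07, 7.21, 6.07 and 7.59, lowest in WT 3 and highest in WT 4. Clock itself differed little (10.32, 10.44, 10.44 and 10.61), and Nr1d1 had an SD of 0.13. Tef was low in both WT 3 and WT 4 (9.79, 9.94, 9.47 and 9.24). Nr1d2 (9.96, 10.03, 10.80 and 10.20) and Cry2 (5.43, 6.13, 6.43 and 5.65) were highest in WT 3 but lowest in WT 1. Of 13 clock genes detected on all 4 arrays, WT 3 was highest for 6 and WT 4 lowest for 7, and 3 had an SD above 0.5. The list score was 0.06, 0.08, 0.30 and -0.26; with a median shift per array WT 3 was highest only relative to the shift of all genes. WT 3 and WT 4 shared both slide and postnatal day.

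**Figure D4:**
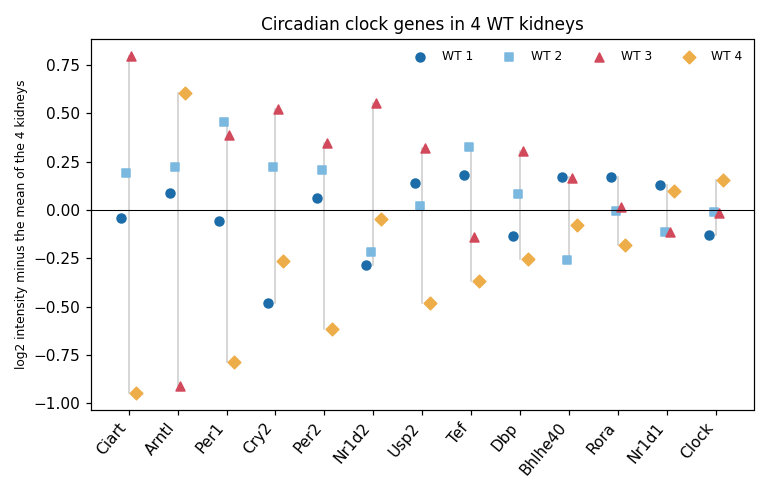
log2 intensity of 13 circadian clock genes minus the mean of the 4 WT kidneys, 1 symbol per kidney, ordered by SD. WT 3 and WT 4 lie at opposite ends for Ciart, Arntl, Per2, Usp2 and Dbp, with Arntl reversed.

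Other response genes were compared by their spread. Among 24 immediate early genes 16 were detected on all 4 arrays, and Egr1, a transcription factor induced by stimulation and stress, was the widest at 9.94, 8.53, 9.10 and 9.83. Fos had an SD of 0.30 and Jun of 0.13. Heat shock genes scored -0.04, -0.07, 0.18 and -0.07, highest in WT 3, with the same exception under a median shift. Hypoxia and glycolysis genes had a median SD of 0.11, below the median of 0.16 over all genes detected. Reference genes used in expression assays had a median SD of 0.09. Gapdh read 13.54, 13.44, 13.50 and 13.47, and the widest, B2m, read 12.48, 12.64, 12.85 and 12.94. These genes were bright, with a median percentile of 98.0. Bright probes spread less in general, with a median SD of 0.14 for detected probes with a mean intensity of 574 or more.

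Over the 17217 probes detected on all 4 arrays, the SD between kidneys had a median of 0.17 log2 units and quartiles of 0.11 and 0.24. An SD above 0.5 was found for 360 probes (2.09%) and above 1 for 51. The spread was larger for dim probes: the median SD was 0.19 for probes with a mean intensity below 170.3 and 0.14 for those of 574 or more. Correlations between kidneys were 0.986 to 0.991 over these probes, which are not independent. WT 3 stood apart: it was the kidney farthest from the mean for 35.5% of probes, against 20.1% to 22.6% for the others.

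For several of the 15 most variable genes a single kidney held most of the spread. Havcr1, the kidney injury molecule Kim-1, varied most, with 10.35, 10.97, 5.65 and 11.73. WT 3 was low, more than 4 units below the next kidney, and the SD of 2.74 fell to 0.69 without it. Of 13 tubule injury genes detected on all 4 arrays, Havcr1 alone had an SD above 0.5. Lcn2, lipocalin 2, read 7.19, 7.82, 7.08 and 7.26, and Krt20, Ccl2 and Il6 were detected on no array. Ctsc, the lysosomal protease cathepsin C, read 9.60, 9.56, 9.49 and 5.79, and without WT 4 its SD fell from 1.88 to 0.056. Both further Ctsc probes were also lowest in WT 4, at 4.47 and 4.83, against 6.96 or more in the other kidneys.

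WT 1 was the low kidney for others. Cops8, a subunit of the COP9 signalosome, read 6.01, 9.005, 9.48 and 9.84, and without WT 1 its SD fell from 1.75 to 0.42. Fgl1, a fibrinogen-like secreted protein, read 5.61, 8.87, 8.41 and 9.52, with an SD of 0.56 without WT 1, and a second Fgl1 probe detected on 3 arrays was lowest in WT 1 too. Inmt, which methylates indolethylamines, read 11.16, 13.74, 13.83 and 12.58. Its second probe agreed, at 8.11, 10.91, 11.13 and 9.85, and without WT 1 the SD of the first fell from 1.25 to 0.69.

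WT 3 was low for Rnase4, a secreted ribonuclease, at 11.91, 11.28, 9.41 and 11.94, and for Sec14l3, a lipid-transfer protein, at 12.11, 12.06, 9.68 and 11.52. Without WT 3 the SDs fell from 1.19 to 0.37 and from 1.14 to 0.33. All 3 probes of Sec14l3 were lowest in WT 3, the others at 6.60 and 6.33 there against 7.93 or more in the other kidneys. WT 2 was low for Ccl25, a chemokine (8.18, 6.00, 8.97 and 9.16), for Agpat5, an acyltransferase (7.80, 5.63, 7.62 and 8.26), and for Ugt2b36, a glucuronosyltransferase (7.73, 5.23, 7.90 and 8.11). Ugt2b36, like Lyz1 above, has close paralogs that its probe may not separate.

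Further probes of the same gene did not always agree. The second detected probe of Adamts9, a matrix protease, had an SD of 0.20 where the first had 1.60 (6.57, 9.72, 8.69 and 6.49). For Supt16, a histone chaperone subunit, the SDs were 0.25 and 1.32 (6.39, 8.63, 9.46 and 8.62 by the wider probe). The other Ccl25 probes had SDs of 0.29 and 0.74, and the more variable of them was highest in WT 2, where the first was lowest. Of 200 genes with an SD above 0.5, 40 had a further probe detected on all 4 arrays. In 18 of these the further probes included one with an SD above 0.5, and in 22 they did not. The same share over all 3504 genes with further detected probes was 2.31%. A difference seen by 1 probe is therefore a difference of that probe's signal, and whether it holds for the whole transcript was not tested. The remaining genes among the 15 were Npy, the neuropeptide Y gene (9.67, 6.54, 7.32 and 9.14), Cldn11, a claudin (5.88, 7.18, 8.49 and 6.62), and Atp4a, a proton pump subunit (6.25, 7.79, 7.15 and 5.28), which took intermediate values.

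Requiring detection on all 4 arrays leaves out probes that vanished in some kidneys. Among the 4077 probes detected on 1 to 3 arrays, 17 had a range above 3 log2 units. They were taken for this range, after their values were seen, and 15 carried a gene symbol. Dao, the peroxisomal D-amino acid oxidase, read 4.94 and 4.93 in WT 1 and WT 2 and 10.63 and 10.49 in WT 3 and WT 4. Me1, the cytosolic malic enzyme, read 10.18 in WT 3 and at most 4.83 in the others, and Tmem25, a transmembrane protein, 10.69 in WT 3 and at most 4.42 in the others. Mcm6, a subunit of the replicative helicase, read 4.31 in WT 1 and 8.93, 9.54 and 9.82 in the others. Folh1, a folate hydrolase, was undetected at 4.26 in WT 4 and 7.64, 8.47 and 8.23 in the other kidneys.

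Some neighbouring genes shared their low kidney and others did not. The 15 most variable genes and the named genes of wide range detected on 1 to 3 arrays made 29 genes in all, which were placed by their order in the RefSeq annotation (GRCm38.p6). All 6 on chromosome 1, Ugt1a7c, Cops8, Gin1, Mcm6, Apoa2 and Fcer1g, were lowest in WT 1, as were 13 of the 29 in total. The 29 hold only brightest probes or probes detected on 1 to 3 arrays. They leave out the probes of Ugt1a10, another Ugt1a gene, given below. Those were lowest in WT 3 (5.80 and 6.02) and not in WT 1 (9.45 and 8.16). Apoa2 and Fcer1g are adjacent: the Apoa2 probe read 4.44, 7.60, 8.47 and 7.19 and the Fcer1g probe 4.31, 7.60, 8.49 and 7.14. Ctsc and Folh1, 14 genes apart on chromosome 7, were both lowest in WT 4. Rnase4 and Rnase1, 4 genes apart on chromosome 14, were both lowest in WT 3, where the Rnase1 probe read 4.58 against 7.33 or more in the other kidneys. Supt16, 48 genes further along, was lowest in WT 1. These genes were chosen for their spread, so the counts describe them and were not tested.

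**Figure D5:**
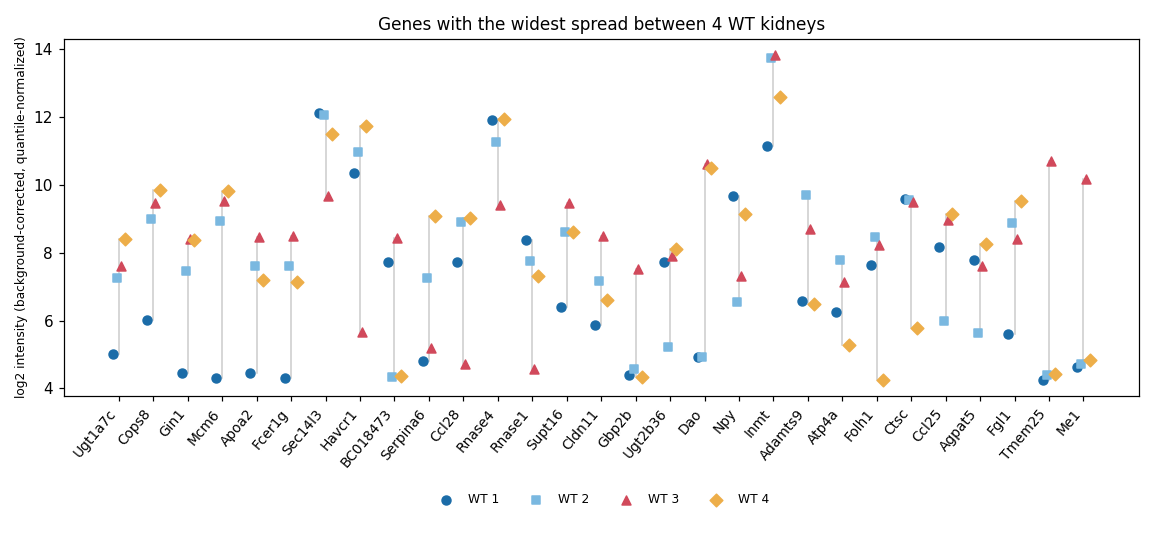
log2 intensity in the 4 WT kidneys of 29 genes with a wide spread, ordered by chromosome as text and by position in the annotation, 1 symbol per kidney (for genes detected on 1 to 3 arrays, the probe with the wide range). The first 6 genes, all on chromosome 1, are lowest in WT 1; Folh1 and Ctsc are lowest in WT 4.

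Similar splits recurred in the other 7 kidneys of the series, with all 11 arrays normalized together. Their values had a range above 2 log2 units for 25 of the 29 genes. This range spans heterozygous and homozygous kidneys together, so it can hold differences between genotypes. The share of all probes with such a range is not reported, so the count has no reference. Havcr1 ran from 5.63 to 10.996 in these 7 kidneys, Ctsc from 5.33 to 9.77 and Dao from 4.60 to 11.10. Sec14l3, Rnase4, Npy and Ccl25 were the 4 genes that did not reach that range. Ctsc and Folh1 were low in the same 3 of the 7 kidneys. Of the 360 probes with an SD above 0.5 in WT, 189 (52.5%) had a within-genotype SD above 0.5 in the other 7, against 2.63% of all probes detected on the 4 WT arrays.

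The test made within the WT group set slide 1 (day 59) against slide 2 (day 58). With limma, 4 of 17217 probes passed an adjusted p of 0.05 (0.0232%), 2 in each direction, while 989 had an unadjusted p under 0.05. Leaving out 1 array changed the number passing to 20 without WT 1, 26 without WT 2, 8 without WT 3 and 92 without WT 4; in each case one slide had a single array, assumed to vary like the others. A probe of Ugt1a10, a glucuronosyltransferase whose last exons are shared by the other Ugt1a genes, read 9.45, 9.53, 5.80 and 6.40, a difference of 3.39 ± 0.22 (SE, adjusted p = 0.00717). A second probe of this gene read 8.16, 8.54, 6.02 and 6.43 (adjusted p = 0.0403). Neither was the brightest probe of Ugt1a10, and by its brightest probe the gene was not among the 15 most variable. The difference is therefore one of these probes' signals. The probe of Ugt1a7c, another Ugt1a gene, was detected on 3 arrays and did not follow. It read 5.03, 7.25, 7.61 and 8.41, lowest in WT 1 and highest in WT 4. Taf6, a subunit of the transcription factor TFIID, went the other way, with 5.68, 5.64, 7.49 and 7.50, a difference of -1.83 ± 0.15 (adjusted p = 0.0231).

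The other kidneys did not keep to this division. The first Ugt1a10 probe read 9.39 to 10.62 in the 4 on slide 1, but on slide 2 it read 9.57, 5.02 and 8.76. Taf6 read 5.32 and 5.52 in the heterozygous and homozygous kidneys of day 59 on slide 1, but 7.15 and 7.47 in those of day 58 on the same slide, and 7.40, 7.41 and 5.29 in those on slide 2. The fourth probe, ILMN_2449449, which has no single gene symbol, read 6.79, 6.98, 8.71 and 8.49 in WT and had its lowest values in the same 3 other kidneys as Taf6.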

How the data were processed

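Kidney RNA was measured on Illumina mouse bead arrays, 1 per mouse, after amplification to biotinylated cRNA. Per the file headers, the authors deposited a linear intensity and a detection p-value for each probe, not normalized between arrays, and a second table of processed intensities; the submitters' processing notes name BeadStudio, and neither its version nor its background treatment is stated there. For the 4 WT arrays alone, limma 3.58.1 in R 4.3.3 subtracted background by normexp (negative controls inferred from the detection p-values, offset 16), then equalised quantiles and took log2. A detection p under 0.01 on all 4 arrays marked a probe as detected. Of 45281 probes, 34885 had 1 gene symbol, 18 several and 10378 none.

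Genes were represented by their brightest probe. The text names the 10 brightest and 15 most variable genes, the brightest, most variable and undetected genes of each list, reference genes and segment markers; others were named after their values were seen. The members and lists were chosen with earlier results of these data known. Of 843 list entries, 92 matched no symbol, Ren1 and Ren2 among them. Slides were compared with lmFit and eBayes and Benjamini-Hochberg adjustment. The number of arrays limits the precision. Alternatives changed the background correction, normalization, detection rule and arrays used.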

Additional observations from a re-analysis of the deposited data

Results flagged for a closer look

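In groups of 4, a kidney was singled out where its distance to the nearest other kidney exceeded Dixon's critical share of the whole range, which chance alone gives for about 1 in 20 groups. Of 75 genes examined 6 met this. The 75 included the 15 most variable genes and list members named for their spread in these same kidneys, so that share is no reference for them. Ctsc and Ugt2b36 were among those 15. Of 36 list scores 2 met it, which is near that share. Over all detected probes WT 3 was singled out: its mean correlation with the other kidneys was 0.986, against 0.989 or more for the others, and the SD of its deviations from the mean was 0.233, against at most 0.188. The 2 list scores were both of WT 3, 0.18 for heat shock genes against at most -0.04 in the others, and 0.048 for the connecting tubule. Single genes with 1 kidney far from the rest were Ctsc, at 5.79 in WT 4, Ugt2b36, at 5.23 in WT 2, Elf5, at 8.16 in WT 3, Adipoq, at 7.96 in WT 4, Gsta4, at 10.62 in WT 3, and Cubn, at 11.45 in WT 1 against at most 11.17 in the others. Havcr1 was not among them, since its high values also spread.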

How the results depend on the processing

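Probes detected on all 4 arrays numbered 18741 with a detection p under 0.05 and 16589 with one under 0.001. Without 1 array, 17434 to 17681 were detected on all arrays left. Detection on at least 3 of the 4 arrays held for 18510 probes and on at least 1 for 21294. All were within 1.5 times the 17217 reported. The median SD of 0.167 was 0.128 with no background correction, 0.136 with an offset of 50, 0.131 in the authors' table, 0.208 with a median shift per array, 0.153 within slides, 0.118 over all probes and 0.140 to 0.163 without 1 array. Probes with an SD above 0.5 (360) numbered 199, 220 and 204 under the first 3 of these, 588 over all probes and 318 to 500 without 1 array. The 4 probes that passed between slides became 2 with all 11 arrays normalized together, 1 over all probes and 8 to 92 without 1 array. A median shift per array moved the median of all detected genes by 0.16 in WT 1 and -0.15 in WT 3; relative to that shift, WT 3 stayed highest for the principal cell, thin limb, osmotic response and clock lists under all 6 scalings. The causes were not tested. Of 147 SDs of named genes recomputed under other processing, 6 moved by over 1.5 times: Slc34a1, Umod, Slc12a1 and Slc12a3 under the median shift (0.16, 0.19, 0.20 and 0.31), and Ugt2b36 and Atp4a with no background correction (0.89 and 0.72). No paired analysis was made, because each array came from a different mouse and the labels pair none of them.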
